A study of Saccharomyces cerevisiae with 17 samples.

Results

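The 35 genes described here encode the machinery that copies and pairs chromosomes in the budding yeast Saccharomyces cerevisiae: the supply of deoxynucleotides (dNTPs), origin licensing and the replicative helicase, the polymerases and primase, the sliding clamp and other fork proteins, fork checkpoint proteins, cohesin, and 3 genes of mismatch repair, histone handling and G1/S control. They were taken by name and are 35 of the 5656 genes measured. A total of 44 probe sets read them, and the probe set with the highest mean log2 signal stood for each gene. The study measured RNA on Affymetrix Yeast Genome S98 arrays from anaerobic, glucose-limited chemostats of the strain CEN.PK113-7D (genotype MATa MAL2-8C SUC2), which are continuous cultures. Their dilution rate, set by the feed, was 0.03 per h. It asked how transcripts respond to a daily temperature cycle (DTC) and how far steady-state cultures foretell that response. The cycle was a sinusoid with a period of 24 h that swung from 30 °C down to 12 °C and back. The cycle groups were DTC_30 at hour 0, DTC_21_decreasing at hour 6 (21 °C, cooling), DTC_14.6 at hour 9, DTC_12 at hour 12, DTC_21_increasing at hour 18 (21 °C, warming) and DTC_27.4 at hour 21. SS_12 and SS_30 were steady-state cultures whose temperature never changed from 12 °C and 30 °C.

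Each group had 2 arrays in the tests. The steady-state arrays came from independent duplicate cultures. The cycle arrays came from a pair of duplicate cultures sampled over the fifth and sixth cycle, so cycle groups share cultures and the p-values treat as independent what the labels do not tie to a culture. At 27.4 °C the array with the number 3 was not used, because the design describes an additional analytical duplicate at the last time point. Which of the arrays there is the duplicate is not given. Values are deposited probe set signals, scaled per array before deposit and set to log2 here. Between 5305 and 5395 of the genes lay above a background signal of 10.46 on each array, and Pearson's r between the replicates of a group ran from 0.956 to 0.984. Precision is limited by how few arrays there were. Of the 35 genes, 34 were above background on all 16 arrays used. All 6 MATa marker genes and all 7 anaerobic marker genes were above background on every array. Of the 4 MATalpha genes, MF(ALPHA)1, STE3 and SAG1 were also above background on all 16 arrays and MF(ALPHA)2 on 12. MF(ALPHA)1 was higher in DTC_12 than in DTC_30 (log2 change 3.06) and STE3 was lower (-0.99). In SS_12 over SS_30 MF(ALPHA)1 was higher as well (3.51). The summed signal of the 4 genes was 1693.5 to 2175.9 in DTC_12 and 322.1 to 446.5 in DTC_30, and 2854.7 to 2870.0 in SS_12 and 406.1 to 465.3 in SS_30. Their part in the results below was not tested.

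In budding yeast many replication genes are transcribed in a burst as cells pass from G1 into S phase, under the MBF and SBF transcription factors. The MCM helicase is loaded at origins in G1 with the help of Cdc6 and is activated in S phase with Cdc45, while DNA polymerase alpha-primase starts each strand and the PCNA clamp holds the synthetic polymerases on DNA. Cohesin rings are closed around sister chromatids as they are made. An array of a whole culture averages cells in all phases, so more cells in S phase and more RNA per S-phase cell cannot be told apart in what follows.

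In the cycle many of these genes had their highest mean at hour 6 and most had their lowest at hour 18. Among the 6 cycle points, 13 of the 35 (37.1%) had their highest mean at hour 6, where 12.4% of the 5368 genes above background had theirs. It was at hour 9 for 7 of the 35 (20%, against 12.4% of those genes) and at hour 12 for 8 (22.9%, against 26%). At hour 18, 24 of the 35 (68.6%) had their lowest mean, against 28.9% of those genes. Over the 6 points, 15 of the 35 differed by a limma F test with a Benjamini-Hochberg adjusted p under 0.05, while the test called 48.7% of all genes. Over all 8 groups the F test called 16 of the 35 and 53.2% of all genes. The share of the 35 called over the 6 points, 42.9%, was not above that background, and the shared timing is given as a description. Leaving out 1 array at a time moved the 15 to between 10 (without DTC_21_increasing replicate 1) and 20 (without DTC_30 replicate 2).

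**Figure D1:**
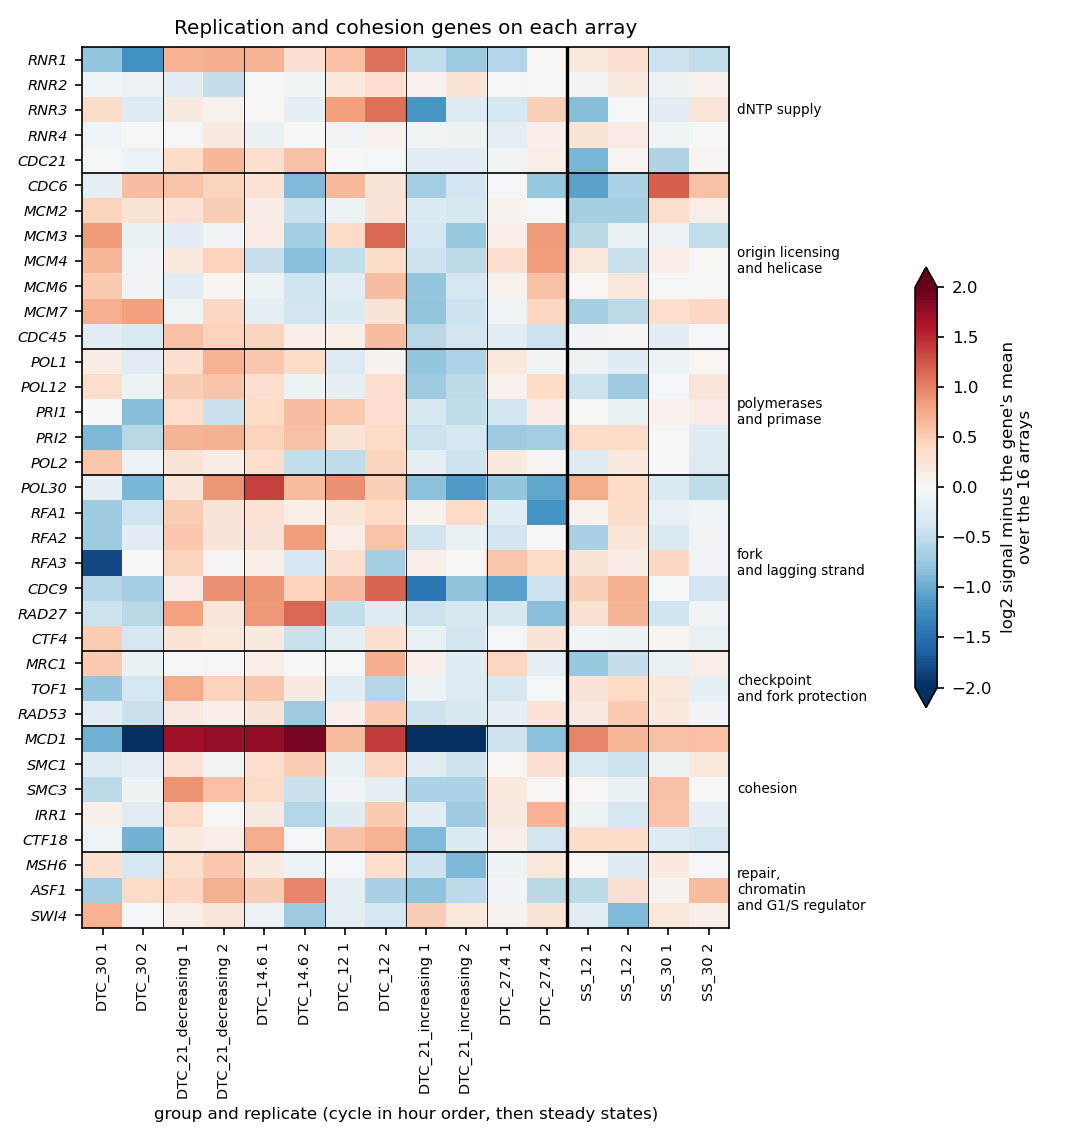
Log2 signal of the 35 genes (rows, grouped by role) on each of the 16 arrays (columns), as the difference from the mean of the gene. The cycle arrays run in hour order, then SS_12 and SS_30, and the columns of hour 18 are mostly blue, where 24 of the 35 genes had their lowest cycle mean.

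Of the pairwise comparisons, the one with the most calls was between the 2 passages through 21 °C. At the same temperature, 15 of the 35 genes were lower on the warming side (hour 18) than on the cooling side (hour 6), and 1 was higher, by a limma contrast at an adjusted p under 0.05. In that comparison 33.9% of all genes were called, 18.7% lower and 15.2% higher. The lower genes were RNR1, MCM2, MCM7, CDC45, POL1, POL12, PRI2, POL30, CDC9, RAD27, TOF1, MCD1, SMC3, MSH6 and ASF1, and the higher one was RNR2. The arrays of the groups did not overlap for 30 of the 35 genes, 29 of them lower, while 74.2% of all genes did not overlap and 40% were lower without overlap. The median change of the 35 was -0.75 on the log2 scale, against -0.04 over all genes. The arrays' own medians differed by -0.12 between these groups, and with each array centred on its median the members' median was -0.63 and the calls were 12 lower and 1 higher. Each call was made with 2 arrays a group, and leaving out any 1 of the 4 arrays brought the number to between 9 and 11.

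Further comparisons place these differences within the cycle. They share arrays with each other and with the comparison above. From the cold point, DTC_12 against DTC_30 gave 8 higher genes (RNR1, CDC45, PRI2, POL30, RFA1, CDC9, MCD1 and CTF18) and 1 lower gene (MCM7), with 32.8% of all genes called, 16.5% higher and 16.3% lower. The arrays did not overlap for 15 higher and 3 lower genes of the 35, 18 in all, and for 61.5% of all genes (31.9% higher, 29.6% lower). The median change of the 35 was 0.22, against 0.05 over all genes. Without DTC_30 replicate 1 the calls were 7, without DTC_12 replicate 2 they were 6, and without DTC_30 replicate 2 or DTC_12 replicate 1 they were 5. With only those 4 arrays in the fit they were 2. Across genes the change rose with coding length (Spearman's rho 0.15 over 5244 genes, which are not independent replicates), and the 35 genes are long, with a median coding length of 2466 bases against 1249.5. With each array's trend with length removed, 7 were higher and 2 lower, and the median change of the 35 was 0.09, against 0.04 over all genes.

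Both comparisons that follow were added after the data had been seen. By hour 6, DTC_21_decreasing already stood above DTC_30 for 8 of the 35 genes, RNR1, CDC45, PRI2, CDC9, RAD27, TOF1, MCD1 and SMC3, and no gene was lower, while 11.2% of all genes were called, 5.22% higher and 5.94% lower. The arrays did not overlap for 23 of the 35, 21 of them higher and 2 lower, and for 54.3% of all genes (28.8% higher, 25.5% lower). The median change of the 35 was 0.46, against 0.03 over all genes. Leaving out DTC_21_decreasing replicate 1 left 3 calls, DTC_30 replicate 1 left 4, DTC_21_decreasing replicate 2 left 5 and DTC_30 replicate 2 left 6. With only those 4 arrays in the fit no gene passed, though 14 had an unadjusted p under 0.05 in the fit over all groups. From hour 12 to hour 18, DTC_21_increasing was lower than DTC_12 for 13 genes and higher for none, with 46.1% of all genes called, 24% lower and 22% higher. The arrays did not overlap for 24 of the 35, 23 of them lower and 1 higher, and for 74.8% of all genes (38.9% lower, 36% higher). The median change of the 35 was -0.60, against -0.04 over all genes, and -0.47 with the length trend removed. SWI4 was called higher after quantile normalization (log2 change 0.75, limma adjusted p = 0.0475) and with the length trend removed (0.77, adjusted p = 0.028). The 13 called genes were RNR1, RNR3, MCM3, CDC45, POL1, POL12, PRI1, PRI2, POL30, CDC9, MCD1, CTF18 and MSH6. Of these, POL1, POL12 and PRI1 lost their calls after quantile normalization, with arrays centred on their median and with the length trend removed. Without DTC_12 replicate 2 the number was 5, without DTC_21_increasing replicate 1 it was 7, and without DTC_21_increasing replicate 2 it was 8. It was 15 without DTC_12 replicate 1.

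**Figure D2:**
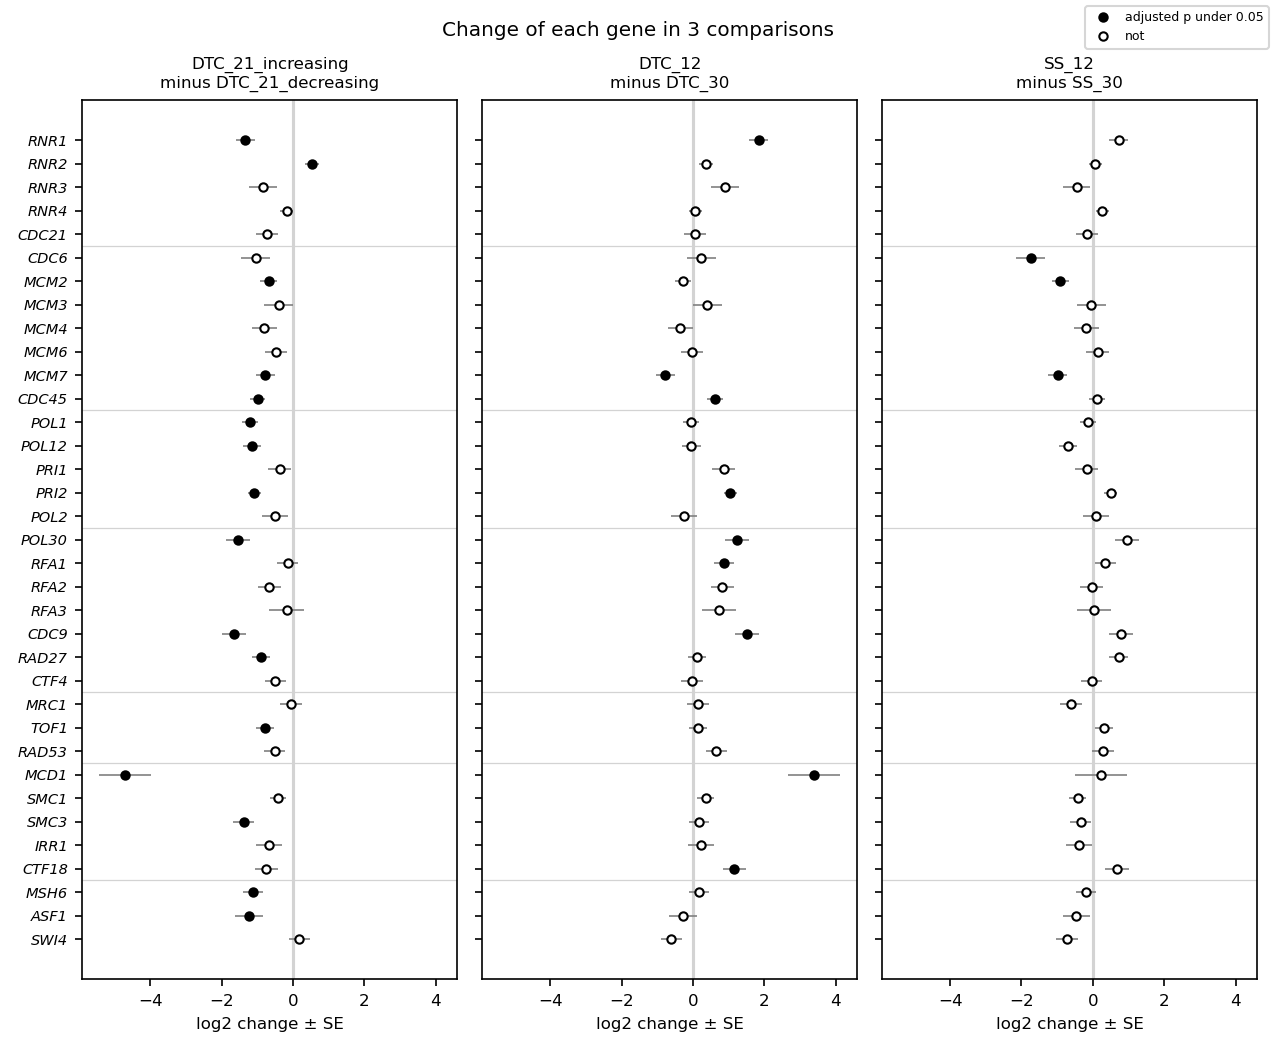
Log2 change ± SE of each of the 35 genes (rows, in the order of their roles) for DTC_21_increasing minus DTC_21_decreasing, DTC_12 minus DTC_30 and SS_12 minus SS_30, with filled points at an adjusted p under 0.05. Of the 35 points, 33 lie left of 0 in the left panel, 25 lie right of 0 in the middle panel, and the right panel holds 3 filled points, all left of 0 (the MCD1 points of the left and middle panels rest on arrays under background and show fitted values, not bounds).

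Between SS_12 and SS_30, only CDC6, MCM2 and MCM7 differed by limma's adjusted p, all 3 lower in the cold, and 22.2% of all genes were called, 12.2% lower and 9.97% higher. The arrays did not overlap for 19 of the 35, 11 of them higher and 8 lower, and for 64.5% of all genes (31.6% higher, 32.9% lower). The median change of the 35 was -0.03, against -0.01 over all genes. The split depended on the scaling: with arrays centred on their median, which added 0.12 to each change, 4 genes were higher (RNR1, PRI2, POL30 and RAD27) and 3 lower, and the median was 0.09. After quantile normalization 2 were higher (POL30 and CTF18) and 3 lower. No gene passed without SS_12 replicate 1 or without SS_30 replicate 1, 1 passed without SS_12 replicate 2 and 2 passed without SS_30 replicate 2.

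In the cycle against steady state at the same temperature, DTC_12 differed from SS_12 for 4 genes, with RNR3, CDC6 and MCM2 higher and RAD27 lower. That test called 18.2% of all genes, 8.84% higher and 9.35% lower. The arrays did not overlap for 17 of the 35, 13 of them higher and 4 lower, and for 59.4% of all genes (30.3% higher, 29% lower). With arrays centred on their median 2 were higher and 2 lower. None passed without SS_12 replicate 1, without DTC_12 replicate 2 or with only these 4 arrays in the fit, and 1 passed without SS_12 replicate 2 or DTC_12 replicate 1. The changes across all genes rose with coding length here too (rho 0.23), and with the length trend removed 1 was higher and 2 lower. At 30 °C, DTC_30 against SS_30 gave 0 calls by limma, with 4 genes at an unadjusted p under 0.05, and 1.2% of all genes were called. The arrays did not overlap for 13 of the 35, 12 of them lower and 1 higher, and for 36.2% of all genes (19.2% lower, 17% higher). Without either DTC_30 array 1 gene passed. MCD1 was the gene with the smallest p, at 7.2 and 0.6 in DTC_30 and 21.0 and 21.2 in SS_30 (adjusted p = 0.0737).

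The effect of cold in the cycle differed from that at steady state for CDC6 alone among the 35 (limma contrast of both temperature effects, adjusted p = 0.0446), where 12.9% of all genes differed, 6.56% with a higher and 6.33% with a lower value in the cycle. The median difference was 0.48 over the 35 and 0.08 over all genes. These medians were 0.33 and 0.07 with the length trend removed and 0.36 and 0.03 after quantile normalization. With arrays centred on their median they were 0.32 and -0.09. The CDC6 call held in 1 of 8 runs that left out an array, the one without DTC_30 replicate 2, and its value ran from 1.57 to 2.39 over the 8. It was lost with a floor of 12 (adjusted p = 0.0629) and with only the groups compared in the fit (adjusted p = 0.0655). RNR1 (1.12) and MCD1 did not pass this test. RNR1 passed after quantile normalization (1.32, adjusted p = 0.044) and with an intensity trend (1.12, adjusted p = 0.0488). MCD1 passed with a floor of 12 (1.01, adjusted p = 0.0459), without dim genes (adjusted p = 0.0309), with an intensity trend (adjusted p = 0.0386) and with all 17 arrays (adjusted p = 0.0485).

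Ribonucleotide reductase makes dNTPs and is the entry point of the pathway. RNR1, the gene of its large subunit, had signals of 534.5 and 397.4 at hour 0, 1483.4 and 1522.7 at hour 6, 1492.9 and 1147.5 at hour 9, 1398.6 and 1977.2 at hour 12, 652.2 and 547.5 at hour 18 and 607.9 and 946.4 at hour 21, and 1056.9 and 1149.9 in SS_12 and 677.9 and 652.0 in SS_30. The 6 arrays of hours 6 to 12 all lay above the 6 of hours 0, 18 and 21. RNR1 was 3.61-fold higher at hour 12 than at hour 0 (log2 change 1.85 ± 0.27 SE, limma adjusted p = 0.000312) and 2.52-fold lower on the warming than on the cooling side (log2 change -1.33 ± 0.27 SE, limma adjusted p = 0.00219). Leaving out any array ended neither call. At hour 6 it was above hour 0 (log2 change 1.71 ± 0.27 SE, limma adjusted p = 0.00266). The SS_12 arrays lay above those of SS_30, but the test did not call the difference (log2 change 0.73 ± 0.27 SE, limma adjusted p = 0.0693).

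RNR2 and RNR4 encode the small subunits. RNR2 had 1360.0 and 1336.5 at hour 0, 1237.3 and 1038.0 at hour 6, 1410.3 and 1366.5 at hour 9, 1662.6 and 1829.1 at hour 12, 1539.8 and 1748.7 at hour 18 and 1409.0 and 1450.0 at hour 21, and 1383.3 and 1644.5 in SS_12 and 1343.9 and 1539.0 in SS_30. Unlike the 15 genes that were lower on the warming side, it was lowest at hour 6 and highest at hours 12 and 18, and it was 1.45-fold higher on the warming side (log2 change 0.53 ± 0.19 SE, limma adjusted p = 0.0449). That call was lost without any 1 of the 4 arrays (0.41 to 0.66), after quantile normalization (0.39) and with only these arrays in the fit. RNR4 had 2843.3 and 2961.1 at hour 0, 2970.1 and 3443.7 at hour 6, 2751.7 and 3020.3 at hour 9, 2896.0 and 3210.5 at hour 12, 2868.3 and 2818.3 at hour 18 and 2644.1 and 3240.0 at hour 21, and 3652.3 and 3404.1 in SS_12 and 2859.6 and 3007.5 in SS_30. Its cycle arrays stayed between 2644.1 and 3443.7, and no comparison called it.

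RNR3, the gene of the other large subunit that is best known for induction by DNA damage, had 161.9 and 106.0 at hour 0, 142.1 and 133.5 at hour 6, 128.5 and 111.5 at hour 9, 221.5 and 270.8 at hour 12, 56 and 105.2 at hour 18 and 98.3 and 174.3 at hour 21, and 69.9 and 123.7 in SS_12 and 108.9 and 148.4 in SS_30. Both arrays of hour 12 lay above all 14 others. RNR3 was 2.63-fold higher in DTC_12 than in SS_12 (log2 change 1.40 ± 0.38 SE, limma adjusted p = 0.0272), a call that was lost without SS_12 replicate 1 (0.99) or either DTC_12 array (1.54 and 1.25), and it was lower at hour 18 than at hour 12 (log2 change -1.67 ± 0.38 SE, limma adjusted p = 0.00383). CDC21, the thymidylate synthase gene, had 86.3 and 81.5 at hour 0, 113.3 and 140.6 at hour 6, 111.1 and 132.9 at hour 9, 88.9 and 86.5 at hour 12, 76.6 and 76 at hour 18 and 84.5 and 95.5 at hour 21, with 46.9 and 91.3 in SS_12 and 57.9 and 91.8 in SS_30. Its 4 arrays of hours 6 and 9 lay above all others. No pairwise comparison called it, although a wave of 24 h fitted to its cycle arrays did (limma adjusted p = 0.0267). The other probe set of CDC21 correlated with the set used at 0.63 over the arrays.

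The licensing genes split. MCM7, a subunit of the replicative helicase, had 466.1 and 502.3 at hour 0, 268.4 and 378.1 at hour 6, 247.7 and 220.5 at hour 9, 234.1 and 342.6 at hour 12, 164.8 and 211.3 at hour 18 and 269.0 and 384.5 at hour 21, and 179.7 and 195.3 in SS_12 and 363.7 and 379.3 in SS_30. Its highest arrays were those of hour 0 and its lowest those of hour 18 and SS_12. It was the only one of the 35 genes called lower in DTC_12 than in DTC_30 (log2 change -0.77 ± 0.26 SE, limma adjusted p = 0.0393), it was lower in SS_12 than in SS_30 (log2 change -0.99 ± 0.26 SE, limma adjusted p = 0.0191) and it was lower on the warming than on the cooling side (log2 change -0.77 ± 0.26 SE, limma adjusted p = 0.0377). The first call was lost without either DTC_30 array (-0.83 and -0.72) or DTC_12 replicate 1 (-0.50). The steady-state call was lost without any 1 of the 4 arrays (-0.93 to -1.05), and the last without DTC_21_decreasing replicate 2 (-0.52) or either DTC_21_increasing array (-0.59 and -0.95).

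MCM2, another helicase subunit, had 160.6 and 142.3 at hour 0, 143.8 and 166.1 at hour 6, 131.0 and 87 at hour 9, 109.7 and 140.7 at hour 12, 97.9 and 94.4 at hour 18 and 124.6 and 119.1 at hour 21, and 74.7 and 74.2 in SS_12 and 149.9 and 130.1 in SS_30. The SS_12 arrays were the lowest of all 16. MCM2 was 1.88-fold lower in SS_12 than in SS_30 (log2 change -0.91 ± 0.23 SE, limma adjusted p = 0.0148), lost without either SS_12 array (-0.91 and -0.90) or SS_30 replicate 1 (-0.81). It was also lower at hour 18 than at hour 6 (log2 change -0.68 ± 0.23 SE, limma adjusted p = 0.0343), lost without any 1 of the 4 arrays (-0.58 to -0.79). In DTC_12 over SS_12 it was higher (log2 change 0.74 ± 0.23 SE, limma adjusted p = 0.0415), lost without any 1 of the 4 arrays (0.56 to 0.92). CDC45, which joins the helicase when origins fire, followed the timing of RNR1 instead. It had 113.6 and 106.7 at hour 0, 198.1 and 181.6 at hour 6, 178.8 and 141.2 at hour 9, 142.4 and 201.4 at hour 12, 89.9 and 101.9 at hour 18 and 112.8 and 98 at hour 21, and 126.5 and 136.6 in SS_12 and 113.7 and 129.6 in SS_30. All 6 arrays of hours 6 to 12 lay above the other 10. On the warming over the cooling side CDC45 fell by 0.99 on the log2 scale (SE 0.22, limma adjusted p = 0.00404), and no left-out array ended that call. At hour 12 over hour 0 it was higher (log2 change 0.62 ± 0.22 SE, limma adjusted p = 0.046), a call lost in 9 of 14 alternatives: without either DTC_30 array (0.67 and 0.58) or DTC_12 replicate 2 (0.37), with the length trend removed (0.46), with arrays centred on their median (0.57), without dim genes, with an intensity trend, with a replicate block and with only the groups compared in the fit.

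CDC6, the licensing factor that loads the helicase, is given per array although it was chosen after its values were seen. It had 39.7 and 69.7 at hour 0, 67.6 and 61.8 at hour 6, 55.4 and 24.6 at hour 9, 71.1 and 54.3 at hour 12, 28.4 and 34.8 at hour 18 and 44.3 and 26.8 at hour 21, and 21.5 and 29.2 in SS_12 and 103.3 and 67.7 in SS_30. In SS_12 both arrays lay under both of SS_30, by 3.34-fold (log2 change -1.74 ± 0.41 SE, limma adjusted p = 0.0111), whereas the arrays of DTC_12 and DTC_30 overlapped (log2 change 0.24 ± 0.41 SE, limma adjusted p = 0.697). The steady-state call was lost without SS_12 replicate 1 (-1.52) or SS_30 replicate 1 (-1.43). In DTC_12 over SS_12 CDC6 was higher (log2 change 1.31 ± 0.41 SE, limma adjusted p = 0.0451), lost without any 1 of the 4 arrays (1.09 to 1.53). The temperature effects in the cycle and at steady state differed (log2 change 1.98 ± 0.58 SE, limma adjusted p = 0.0446). The helicase genes MCM3, MCM4 and MCM6 ranged over 86.8 to 326.8, 89.3 to 285.1 and 12.4 to 32.4. Their sole call was MCM3, lower at hour 18 than at hour 12 (log2 change -1.31 ± 0.41 SE, limma adjusted p = 0.0206), which was lost without DTC_12 replicate 2 (-0.93) or DTC_21_increasing replicate 2 (-1.09).

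The genes of DNA polymerase alpha-primase, which lays the primers, were all called lower at hour 18 than at hour 12. In that comparison 46.1% of all genes were called, 24% lower. The calls of POL1, POL12 and PRI1 were lost in 9, 7 and 8 of 14 alternatives, and that of PRI2 in 2. POL1 and POL12 had their lowest cycle mean at hour 18, while PRI1 and PRI2 had theirs at hour 0. PRI2, the large primase subunit, had 81.6 and 103.4 at hour 0, 243.6 and 248.0 at hour 6, 208.2 and 226.8 at hour 9, 183.1 and 196.4 at hour 12, 112.8 and 120.0 at hour 18 and 91.8 and 93.1 at hour 21, and 198.0 and 197.7 in SS_12 and 151.5 and 128.5 in SS_30. From hour 6 on, both arrays of each cycle point lay below both of the point before. PRI2 was 2.68-fold higher at hour 6 than at hour 0 (log2 change 1.42 ± 0.19 SE, limma adjusted p = 0.00101) and 2.11-fold lower at hour 18 than at hour 6 (log2 change -1.08 ± 0.19 SE, limma adjusted p = 0.000839). At hour 12 it was above hour 0 (log2 change 1.05 ± 0.19 SE, limma adjusted p = 0.00122). No left-out array ended these 3 calls, but with only the groups compared in the fit both calls over hour 0 were lost.

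POL1, the catalytic subunit, had 258.6 and 199.6 at hour 0, 292.3 and 380.5 at hour 6, 340.4 and 302.1 at hour 9, 195.0 and 246.4 at hour 12, 137.0 and 153.4 at hour 18 and 269.7 and 225.2 at hour 21, and 219.1 and 197.8 in SS_12 and 216.0 and 239.9 in SS_30. The arrays of hours 6 and 9 were above all others and those of hour 18 below all others. POL12, the B subunit, had 113.3 and 83.2 at hour 0, 125.8 and 132.3 at hour 6, 111.3 and 83.1 at hour 9, 79.5 and 112.0 at hour 12, 53.9 and 62.2 at hour 18 and 94.6 and 118.0 at hour 21, and 66.2 and 54.1 in SS_12 and 87.6 and 105.7 in SS_30. Its arrays of hour 6 were the highest, and hour 18 shared the low end with SS_12. On the warming over the cooling side POL1 was 2.3-fold lower (log2 change -1.20 ± 0.22 SE, limma adjusted p = 0.00135) and POL12 2.23-fold lower (log2 change -1.16 ± 0.25 SE, limma adjusted p = 0.00403), and leaving out any array kept both calls. Neither gene was called between hours 12 and 0 (log2 change -0.05 for POL1 and -0.04 for POL12). PRI1, the small primase subunit, ranged over 56.4 to 156.6 and was called lower at hour 18 than at hour 12 (log2 change -0.85 ± 0.32 SE, limma adjusted p = 0.0463), a call lost without any 1 of the 4 arrays (-0.75 to -0.94). POL2, the catalytic subunit of polymerase epsilon, ranged over 146.1 to 303.6 and was not called. Of its 8 other probe sets, 4 lay under background on all 16 arrays.

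**Figure D3:**
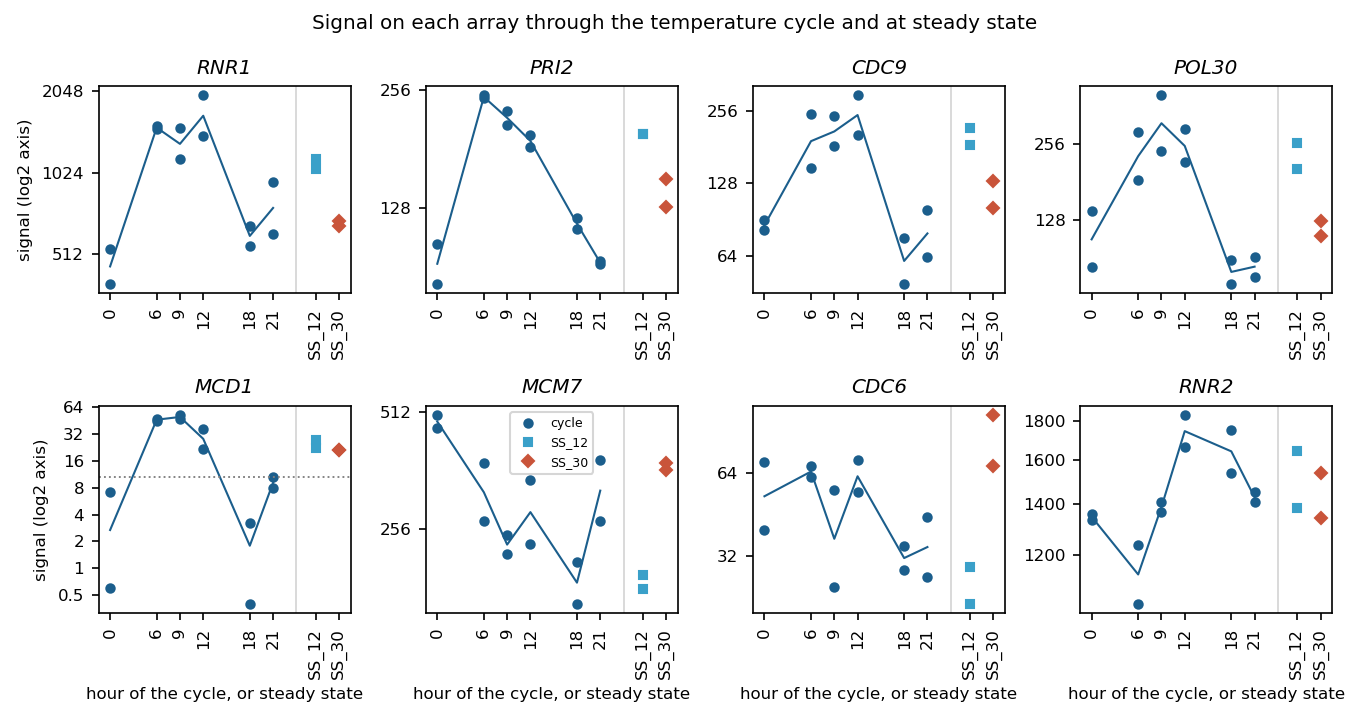
Signal of 8 genes on each array (log2 axis) against the hour of the cycle, with the line through the means of the cycle points, the steady-state arrays at the right of each panel and the background signal of 10.46 as a dotted line for MCD1. RNR1, PRI2, CDC9, POL30 and MCD1 are high at hours 6 to 12 and lower at hour 18, with the lowest mean of RNR1 and PRI2 at hour 0. MCM7 is highest at hour 0, CDC6 separates SS_12 from SS_30, and RNR2 is lowest at hour 6.

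At the fork, POL30 encodes PCNA, the sliding clamp. It had 138.3 and 82.6 at hour 0, 184.4 and 286.4 at hour 6, 401.7 and 240.8 at hour 9, 293.8 and 216.9 at hour 12, 88.4 and 71 at hour 18 and 91.1 and 75.9 at hour 21, and 260.1 and 204.4 in SS_12 and 126.8 and 110.1 in SS_30. The 8 arrays of hours 6, 9 and 12 and of SS_12 were all above the other 8. POL30 was 2.36-fold higher at hour 12 than at hour 0 (log2 change 1.24 ± 0.33 SE, limma adjusted p = 0.0138), lost without DTC_30 replicate 2 (0.87) or DTC_12 replicate 1 (1.02), and 2.9-fold lower on the warming than on the cooling side (log2 change -1.54 ± 0.33 SE, limma adjusted p = 0.00364), kept without any array. In SS_12 over SS_30 its arrays did not overlap but it missed the threshold (log2 change 0.96 ± 0.33 SE, limma adjusted p = 0.0576).

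CDC9, the DNA ligase that seals Okazaki fragments, had 89.6 and 81.7 at hour 0, 147.8 and 248.7 at hour 6, 243.1 and 182.2 at hour 9, 204.0 and 297.3 at hour 12, 48.8 and 75.7 at hour 18 and 63.1 and 99.2 at hour 21, and 184.3 and 216.8 in SS_12 and 130.9 and 101.3 in SS_30. Its pattern was that of POL30, with the same 8 arrays above the other 8. CDC9 was 2.88-fold higher at hour 12 than at hour 0 (log2 change 1.53 ± 0.34 SE, limma adjusted p = 0.00459). It was 3.15-fold lower on the warming than on the cooling side (log2 change -1.66 ± 0.34 SE, limma adjusted p = 0.00241) and 4.05-fold lower at hour 18 than at hour 12 (log2 change -2.02 ± 0.34 SE, limma adjusted p = 0.000439). No left-out array ended these calls. RAD27, the flap nuclease that trims those fragments, had 115.1 and 105.6 at hour 0, 270.1 and 181.9 at hour 6, 282.5 and 340.5 at hour 9, 109.3 and 130.5 at hour 12, 114.9 and 124.3 at hour 18 and 123.9 and 86.9 at hour 21, and 191.2 and 248.1 in SS_12 and 117.4 and 148.5 in SS_30. It was high at hours 6 and 9 and in SS_12, but at hour 12 its arrays overlapped those of hour 0. It was lower in DTC_12 than in SS_12 (log2 change -0.87 ± 0.26 SE, limma adjusted p = 0.0396), the one fall among the 4 calls of that comparison, which was lost without any 1 of the 4 arrays (-0.68 to -1.05).

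On the warming over the cooling side RAD27 was lower as well (log2 change -0.89 ± 0.26 SE, limma adjusted p = 0.0198), lost without DTC_21_decreasing replicate 1 (-0.61) or either DTC_21_increasing array (-0.83 and -0.95). RFA1, RFA2 and RFA3 encode the single-strand binding protein RPA. RFA1 ranged over 179.6 to 575.6 and was called higher at hour 12 than at hour 0 (log2 change 0.87 ± 0.29 SE, limma adjusted p = 0.0358), a call lost without any 1 of the 4 arrays (0.71 to 1.03) and with the length trend removed (0.72). RFA2 (206.3 to 604.1) and RFA3 (80.0 to 414.3) were not called in a pairwise comparison (log2 change 0.83 for RFA2 and 0.73 for RFA3 at hour 12 over hour 0). CTF4, which ties the helicase to polymerase alpha, ranged over 108.0 to 211.0 and was not called.

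Of the 3 checkpoint genes, TOF1, a fork protection factor, moved in the cycle. It had 37.3 and 50.6 at hour 0, 106.5 and 87.1 at hour 6, 92.8 and 72.1 at hour 9, 54.3 and 42.2 at hour 12, 59.5 and 53 at hour 18 and 51.2 and 62.6 at hour 21, and 76 and 84.2 in SS_12 and 74.1 and 55.9 in SS_30. Both arrays of hour 6 were above all arrays of hours 0, 12, 18 and 21. TOF1 was 2.22-fold higher at hour 6 than at hour 0 (log2 change 1.15 ± 0.25 SE, limma adjusted p = 0.0126), lost without DTC_30 replicate 1 (0.93) or DTC_21_decreasing replicate 1 (1.0), and lower at hour 18 than at hour 6 (log2 change -0.78 ± 0.25 SE, limma adjusted p = 0.029), lost without any 1 of the 4 arrays (-0.63 to -0.92). The checkpoint kinase gene RAD53 had 34.5 and 29.6 at hour 0, 45.7 and 43.3 at hour 6, 48.5 and 24.7 at hour 9, 43.6 and 58.3 at hour 12, 30.1 and 32.3 at hour 18 and 36 and 49.4 at hour 21, and 46.1 and 58.3 in SS_12 and 46.6 and 39.1 in SS_30. Its arrays of hours 6 and 12 lay above those of hours 0 and 18, but no comparison called it. MRC1, the mediator that works with Tof1, had 56.8 and 36.2 at hour 0, 39.3 and 38.7 at hour 6, 42.7 and 39.4 at hour 9, 38.3 and 65 at hour 12, 42.5 and 33.5 at hour 18 and 53.3 and 34.7 at hour 21, and 23.3 and 28.3 in SS_12 and 35.6 and 43.1 in SS_30. The SS_12 arrays were its lowest, and no comparison called it. Nearest to the threshold was DTC_12 over SS_12 (log2 change 0.96 ± 0.31 SE, limma adjusted p = 0.0508). That change passed after quantile normalization (adjusted p = 0.0477), without dim genes (adjusted p = 0.0391), with an intensity trend (adjusted p = 0.0497) and with all 17 arrays (adjusted p = 0.0389).

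Among the cohesin genes MCD1, the ring subunit that is cut when sisters separate, was the one with arrays under background. It had 7.2 and 0.6 at hour 0, 45.4 and 47.5 at hour 6, 47.7 and 52.1 at hour 9, 21.8 and 36.8 at hour 12, 3.2 and 0.4 at hour 18 and 10.5 and 7.9 at hour 21, and 27.5 and 22.2 in SS_12 and 21 and 21.2 in SS_30. Both arrays of hour 0 and of hour 18 lay under the background of 10.46, while all arrays of hours 6, 9 and 12 and of both steady states lay above it. Its fold changes are therefore bounds against the background. MCD1 was at least 4.44-fold higher at hour 6 than at hour 0 (limma adjusted p = 0.00463), at least 2.71-fold higher at hour 12 than at hour 0 (adjusted p = 0.0037) and at least 4.44-fold lower at hour 18 than at hour 6 (adjusted p = 0.000381). With a floor of 12 in place of 1 the fitted log2 changes were 1.95, 1.24 and -1.95, all still called. Leaving out any 1 array ended none of these calls, although both calls over hour 0 were lost with only the groups compared in the fit.

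SMC3, a coiled-coil subunit of the ring, had 46.2 and 62.2 at hour 0, 123.7 and 100.3 at hour 6, 86.4 and 48.9 at hour 9, 63 and 58.3 at hour 12, 42.8 and 42.8 at hour 18 and 76.9 and 67.2 at hour 21, and 67.9 and 60.4 in SS_12 and 99.2 and 66.7 in SS_30. The hour 6 arrays were its highest of all 16 and the hour 18 arrays its lowest. It was 2.6-fold lower on the warming than on the cooling side (log2 change -1.38 ± 0.29 SE, limma adjusted p = 0.00288), kept without any array, and higher at hour 6 than at hour 0 (log2 change 1.06 ± 0.29 SE, limma adjusted p = 0.0369), lost without DTC_30 replicate 1 (0.84) or either DTC_21_decreasing array (0.90 and 1.21). CTF18, part of a clamp loader that helps to establish cohesion, had 37.9 and 21 at hour 0, 46.4 and 44.4 at hour 6, 67.6 and 39.3 at hour 9, 60.5 and 65.6 at hour 12, 21.9 and 33.3 at hour 18 and 43.3 and 31.4 at hour 21, and 52.2 and 52.1 in SS_12 and 33.7 and 31.7 in SS_30. The hour 12 arrays lay above those of hour 0, by 2.23-fold (log2 change 1.16 ± 0.33 SE, limma adjusted p = 0.0179), a call lost without DTC_30 replicate 2 (0.73) or either DTC_12 array (1.22 and 1.10). The cohesin genes SMC1 and IRR1 ranged over 37.6 to 71.8 and 31.2 to 82.6 and were not called.

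MSH6, a mismatch recognition gene, had 254.9 and 159.6 at hour 0, 260.5 and 296.6 at hour 6, 233.2 and 188.8 at hour 9, 197.9 and 260.0 at hour 12, 151.6 and 109.2 at hour 18 and 190.8 and 239.8 at hour 21, and 208.7 and 170.0 in SS_12 and 233.0 and 201.2 in SS_30. Its hour 6 arrays were the highest of the 16 and its hour 18 arrays the lowest. It was 2.16-fold lower on the warming than on the cooling side (log2 change -1.11 ± 0.28 SE, limma adjusted p = 0.00819), lost without DTC_21_decreasing replicate 2 (-1.02) or DTC_21_increasing replicate 2 (-0.87). ASF1, a histone chaperone at the fork, had 115.8 and 243.2 at hour 0, 249.3 and 303.6 at hour 6, 261.4 and 368.1 at hour 9, 163.3 and 118.8 at hour 12, 106.1 and 129.5 at hour 18 and 179.3 and 127.1 at hour 21, and 130.0 and 229.9 in SS_12 and 196.1 and 287.6 in SS_30. Its high arrays were those of hours 6 and 9 with overlap into SS_30, and it was lower at hour 18 than at hour 6 (log2 change -1.23 ± 0.39 SE, limma adjusted p = 0.0284), lost without any 1 of the 4 arrays (-1.09 to -1.37). SWI4, the DNA-binding subunit of SBF, had 52.4 and 31.8 at hour 0, 35.2 and 38.1 at hour 6, 29.7 and 19.5 at hour 9, 28.1 and 25.5 at hour 12, 45.4 and 37.6 at hour 18 and 33.9 and 39.1 at hour 21, and 27.8 and 17.4 in SS_12 and 37.5 and 35 in SS_30. Its arrays of hours 9 and 12 and of SS_12 lay below those of all other groups, and it had its highest cycle mean at hour 18. No pairwise test in the fit over all groups called it (-0.61 for hour 12 over hour 0). With the length trend removed it was called lower at hour 12 than at hour 0 and higher at hour 18 than at hour 12.

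A 24-h cosine wave fitted to the 12 cycle arrays gave 14 of the 35 genes an adjusted p under 0.05, where 43.6% of all genes had one. Of those 14 (median peak hour 8.70), 13 peaked between hours 5 and 12, and of the 2466 genes called among all, 40.1% peaked there. The limits of hours 5 and 12 were not fixed in the design, and they hold every called gene of the 35 except RNR2. Both shares are therefore a description. The fitted amplitude of MCD1 rests on its arrays under background and is not given (peak at hour 8.16, adjusted p = 0.00506). The widest waves of the other genes called were those of POL30 (amplitude 0.97 on the log2 scale, hour 8.59, adjusted p = 0.000389), CDC9 (0.92, hour 8.81, adjusted p = 0.00139) and RNR1 (0.78, hour 9.91, adjusted p = 0.00387). POL1 (hour 5.26), ASF1 (hour 5.60) and CDC21 (hour 6.12) had the earliest peaks, and RNR2 alone peaked after hour 12 (hour 15.5). Leaving out 1 array at a time gave 9 calls (without DTC_21_increasing replicate 1) to 15. Peak hours are fitted values and may lie between sampled points.

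**Figure D4:**
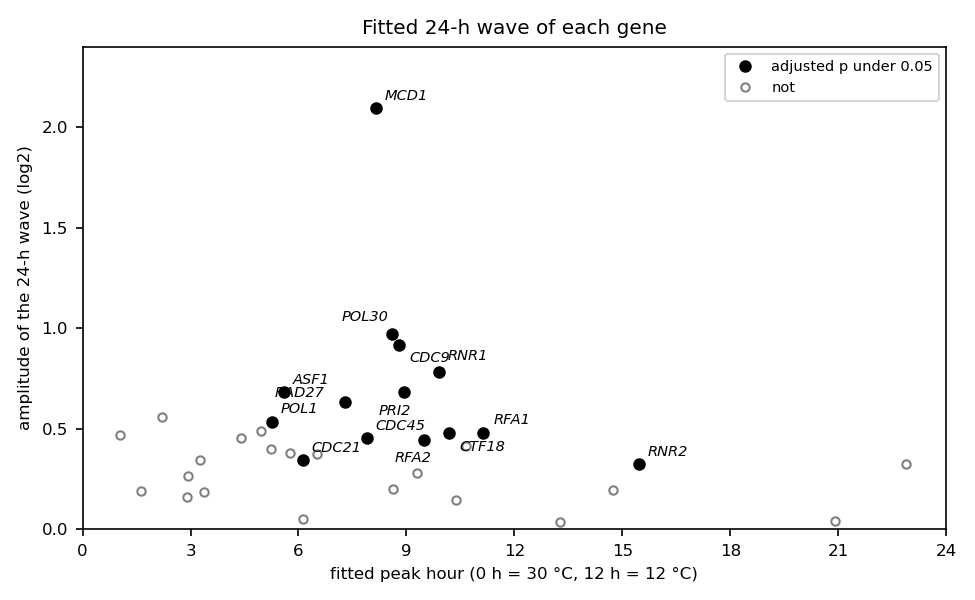
Fitted peak hour (x axis, hours) and amplitude (y axis, log2) of the 24-h wave of each of the 35 genes, with filled and named points at an adjusted p under 0.05. Of the 14 filled points, 13 lie between hours 5 and 12, and RNR2 lies at hour 15.5 (the height of the MCD1 point rests on arrays under background).

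Over the means of the 8 groups, pairs of these genes had a median Pearson's r of 0.30, and 74.5% of the 595 pairs were positive. Among genes above background the median was 0.0036 and 50.2% were positive. The pairs share arrays, so this is a description. The genes of the 35 most like RNR1 over the 8 means were CTF18 (r = 0.93), CDC45 (0.89), CDC9 (0.89), RFA2 (0.89), PRI2 (0.88), POL30 (0.86) and MCD1 (0.85). By role, all 10 pairs of cohesion genes were positive (median 0.49), as were 80% of the pairs of polymerase and primase genes (median 0.51), 90.5% of the 21 pairs of licensing and helicase genes (median 0.43) and 81% of the 21 pairs of fork genes (median 0.23). Pairs of dNTP genes were positive in 50% of cases (median 0.02). Of the 3 pairs of checkpoint genes 33.3% were positive (median -0.30), and so were 33.3% of the 3 pairs of MSH6, ASF1 and SWI4 (median -0.17).

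The rest of the pathway was read from lists of other genes. Their counts stand against the shares of all genes called: 16.5% higher and 16.3% lower at hour 12 than at hour 0, 18.7% lower and 15.2% higher on the warming than on the cooling side, and 9.97% higher and 12.2% lower in SS_12 than in SS_30. Of 34 other replication genes, 4 were higher and 3 lower at hour 12 than at hour 0, and 8 were lower and 0 higher on the warming than on the cooling side. ORC2, an origin recognition subunit, was higher at hour 12 (log2 change 1.01 ± 0.30 SE, limma adjusted p = 0.021), as was the clamp loader gene RFC4 (0.82 ± 0.24, adjusted p = 0.0217). DPB3, a polymerase epsilon subunit, was lower (-0.97 ± 0.30, adjusted p = 0.0265), and so was ORC4 (-0.94 ± 0.32, adjusted p = 0.0418). At steady state TAH11, the partner of Cdc6 in licensing, fell in the cold (-1.07 ± 0.27, adjusted p = 0.0155), as did MCM5 (-0.97 ± 0.24, adjusted p = 0.0146). Of these 34 genes 3 were lower and 0 higher there, against 12.2% and 9.97% of all genes. The third was the clamp loader gene RFC2 (-0.88 ± 0.24, adjusted p = 0.02). The origin recognition genes ORC1, ORC2, ORC3, ORC4, ORC5 and ORC6 and MCM10 were not called there.

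Of 12 other dNTP genes, 5 were higher and 2 lower at hour 12 than at hour 0. HUG1, an inhibitor of ribonucleotide reductase that is induced by replication stress, was higher (log2 change ± SE 1.69 ± 0.27, adjusted p = 0.00056), as was DUT1, the dUTPase gene (1.01 ± 0.23, adjusted p = 0.00543). The nucleoside diphosphate kinase gene YNK1 (-1.83 ± 0.23, adjusted p = 0.000122) and the regulator gene WTM1 (-0.91 ± 0.22, adjusted p = 0.00733) were lower. In constant cold DUT1 was also higher (1.14 ± 0.23, adjusted p = 0.00487), as was the guanylate kinase gene GUK1 (0.86 ± 0.25, adjusted p = 0.0298). Of 11 other cohesion genes 2 were higher at hour 12 and 0 lower, the cohesin loader SCC2 (1.23 ± 0.34, adjusted p = 0.0172) and the securin gene PDS1 (1.18 ± 0.32, adjusted p = 0.0151). Of 12 repair genes 2 were higher and 0 lower, RAD52 (0.99 ± 0.27, adjusted p = 0.016) and EXO1 (0.97 ± 0.28, adjusted p = 0.0181), while RAD59 (1.55 ± 0.35, adjusted p = 0.00852) and APN1 (1.19 ± 0.37, adjusted p = 0.0401) were among 3 higher in constant cold.

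Of 17 further MBF and SBF regulators and targets, 9 were higher and 1 lower at hour 12 than at hour 0 (16.5% and 16.3% of all genes), and 1 was higher and 5 lower on the warming than on the cooling side. GIC1, a polarity gene, was higher (log2 change ± SE 1.95 ± 0.29, adjusted p = 0.000347), as was NRM1, the repressor that shuts MBF off (1.83 ± 0.26, adjusted p = 0.000301). ERP3 was lower (-1.05 ± 0.22, adjusted p = 0.00338). At steady state 3 were higher and 1 lower in the cold, with MNN1, a mannosyltransferase gene (2.06 ± 0.32, adjusted p = 0.00105), and TOS4 (1.25 ± 0.18, adjusted p = 0.000618) higher. STB1 was lower (-2.13 ± 0.52, adjusted p = 0.0138) and lay above background on 15 of 16 arrays. Of 10 damage checkpoint genes 0 were higher and 2 lower at hour 12, the kinases TEL1 (-1.0 ± 0.20, adjusted p = 0.00229) and MEC1 (-0.94 ± 0.27, adjusted p = 0.0202). In constant cold TEL1 (-0.80 ± 0.20, adjusted p = 0.0138) and RAD9 (-1.39 ± 0.32, adjusted p = 0.00957) were lower and DIN7 higher (0.89 ± 0.29, adjusted p = 0.0444). Of 10 chromatin assembly genes RTT109, a histone acetyltransferase, was the one called at hour 12 (1.26 ± 0.43, adjusted p = 0.0404). Of 4 histone genes measured the linker histone gene HHO1 was called there (1.40 ± 0.34, adjusted p = 0.00787).

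Lists of other cell cycle phases were read in the same contrasts, beside the shares of all genes given above. Of 11 mitotic genes 3 were higher and 0 lower at hour 12 than at hour 0, among them the cyclin gene CLB1 (log2 change ± SE 3.86 ± 0.30, adjusted p = 8.26e-06) and the kinase gene CDC5 (1.27 ± 0.24, adjusted p = 0.00206). Between the passages through 21 °C, 3 of the 11 were higher and 0 lower on the warming side, against 15.2% and 18.7% of all genes. In constant cold CLB1 (2.91 ± 0.30, adjusted p = 6.46e-05) and CLB2 (1.51 ± 0.44, adjusted p = 0.0297) were higher and MOB1 (-1.27 ± 0.25, adjusted p = 0.00438) and IQG1 (-0.76 ± 0.21, adjusted p = 0.0234) lower. Of 11 genes of the M/G1 boundary 1 was higher, AMN1 (1.10 ± 0.34, adjusted p = 0.027), and 1 lower, DSE4 (-1.19 ± 0.30, adjusted p = 0.00884), at hour 12 over hour 0. On the warming over the cooling side 3 were higher and 0 lower. In constant cold 1 was higher, FAR1 (0.71 ± 0.23, adjusted p = 0.0464), and 4 were lower, DSE1 (-1.30 ± 0.37, adjusted p = 0.0255) and EGT2 (-1.08 ± 0.20, adjusted p = 0.0034) among them. The part of these genes in the results above was not tested.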

How the data were processed

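The series holds 17 Affymetrix Yeast S98 arrays, 1 sample each, in 8 groups, which measure RNA. The deposited values are probe set intensities on a linear scale. RMA is named per the submitters' processing notes, with no version. In the deposited values the trimmed mean of each array lay between 240.18 and 240.24, so each array had been scaled to a common level. Whether RMA gave these linear values is not known here. Scanner files were not used here. Values were set to at least 1 and taken to log2. Of 9335 probe sets, 6504 named 1 gene, 328 several and 2443 none, and 60 were controls. All 6504 matched the R64 gene table, and the set with the highest mean log2 signal stood for each of 5656 genes. Background is the signal of 10.46 below which 95% of the values of 28 control sets fall.

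Groups came from the sample labels. One mean per group was fitted to 16 arrays with limma 3.58.1 (R 4.3.3, statmod 1.5.0), two-sided, and p-values were adjusted by Benjamini-Hochberg over all genes, with a threshold of 0.05. The script was tested on simulated data. The cosine fit used the 12 cycle arrays. Values per array are given for the 4 RNR genes, for up to 3 further genes of each role with the highest F over the 8 groups and for genes called against the majority. From each other list, up to 2 higher and 2 lower genes are named. The 35 genes and the lists were chosen with earlier results of these data known. Alternatives were quantile normalization, centring on the median, a floor of 12, removing dim genes, the mean of all probe sets, an intensity trend with a robust prior, all 17 arrays, a threshold of 0.01, a replicate block, only the groups compared, and each array left out. The correction for coding length and 2 comparisons were added after seeing the data. Sequences were not analysed here.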

Additional observations from a re-analysis of the deposited data

Results flagged for a closer look

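The change with cold, 12 °C against 30 °C, differed between the cycle and steady state for 11 of the genes named here. The test was a limma contrast of both changes, adjusted over all genes. It called 12.9% of all 5656 genes, 6.56% with a higher and 6.33% with a lower value in the cycle. The 11 are listed because they passed, and no excess over that share is claimed. Values are log2 differences, cycle minus steady state. CDC6 had a difference of 1.98 (adjusted p = 0.0446), with 0.24 in the cycle and -1.74 at steady state. TAH11, its partner in licensing, had 1.70 (adjusted p = 0.0138), with 0.63 in the cycle and -1.07 at steady state. For ORC2 the difference was 1.44 (adjusted p = 0.0434), from 1.01 and -0.43. HUG1 had 1.35 (adjusted p = 0.0377), from 1.69 and 0.34, and GIC1 had 2.50 (adjusted p = 0.00272), from 1.95 and -0.54. RAD9, a damage checkpoint adaptor, had 1.59 (adjusted p = 0.039), from 0.20 and -1.39. MOB1, a mitotic exit gene, had 1.48 (adjusted p = 0.0179), from 0.21 and -1.27. HTB2, the histone H2B gene, had 1.61 (adjusted p = 0.0281), from 0.73 and -0.88, neither of which was called by itself. The differences of YNK1, RAD59 and MF(ALPHA)2 had the other sign. YNK1 had -1.89 (adjusted p = 0.00376), from -1.83 and 0.06, and RAD59 had -1.84 (adjusted p = 0.0302), from -0.29 and 1.55. MF(ALPHA)2, an alpha-factor gene, had -1.15 (adjusted p = 0.0375), from 0.41 and 1.56, and was above background on 12 of 16 arrays. The other 10 were above background on all 16.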

How the results depend on the processing

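None of the 54 calls of single genes changed direction in 760 recomputations, and 165 lost the threshold, 106 of them with 1 array left out and 27 with only the groups compared in the fit. Some of these alternatives leave the fitted change of a called gene as it was, so they could not change its direction. They are removing dim genes, the intensity trend, all 17 arrays, the replicate block, the mean of all probe sets and only the groups compared. Numbers below are genes called of the 35. For SS_12 against SS_30 (3) there were 5 after quantile normalization, 7 with centred arrays, 5 with an intensity trend and 0 at a threshold of 0.01. At that threshold there were 4 for DTC_12 against DTC_30 (9), 0 for DTC_12 against SS_12 (4), 10 between the passages through 21 °C (16), 3 for DTC_21_decreasing against DTC_30 (8), 8 for DTC_21_increasing against DTC_12 (13), 8 for the 6 cycle points (15), 6 for the cosine wave (14) and 0 for the difference of both temperature effects (1). With only the groups compared there were 2 for DTC_12 against DTC_30, and 0 for DTC_12 against SS_12, for DTC_21_decreasing against DTC_30 and for the difference of effects. That difference had 2 calls after quantile normalization, where RNR1 joined (1.32), 2 without dim genes, 3 with an intensity trend and 2 with all 17 arrays. DTC_30 against SS_30 (0) had 1 with a floor of 12 (PRI2), and 1 each without dim genes, with an intensity trend and with the length correction. With 1 array left out the ranges were 0 to 2 for SS_12 against SS_30, 5 to 7 for DTC_12 against DTC_30, 0 to 1 for DTC_12 against SS_12, 0 to 1 for DTC_30 against SS_30, 9 to 11 between the passages, 3 to 6 for DTC_21_decreasing against DTC_30, 5 to 15 for DTC_21_increasing against DTC_12, 0 to 2 for the difference of effects, 10 to 20 for the 6 points and 9 to 15 for the wave. Apart from fewer arrays or a stricter threshold, the cause was not tested. An arm left with 1 array is assumed to vary like the other groups.

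Deviations of same-numbered arrays correlated over 0.1 in 3 of 15 pairs of cycle groups (-0.47 to 0.52, median 0.02), and at 0.02 in the steady-state pair. With correlations of both signs, these values cannot tell whether same-numbered arrays came from the same culture. With a replicate block the calls were 4 for SS_12 against SS_30, 9 for DTC_12 against DTC_30, 4 for DTC_12 against SS_12, 0 for DTC_30 against SS_30, 16 between the passages, 10 for DTC_21_decreasing against DTC_30, 13 for DTC_21_increasing against DTC_12, 1 for the difference of effects, 17 for the 6 points and 11 for the wave. Under the block 52 of the 54 single-gene calls passed, and CDC45 for DTC_12 against DTC_30 and POL1 for DTC_21_increasing against DTC_12 did not.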

Other observations

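Some neighbours of the 35 genes also differed between the passages through 21 °C. In that comparison 33.9% of all genes were called, 18.7% lower and 15.2% higher. The genes in this paragraph were chosen after their values were seen. DCD1, the dCMP deaminase gene of dTMP synthesis, was lower on the warming than on the cooling side (log2 change -2.39, limma adjusted p = 5.26e-05). DPB2, a polymerase epsilon subunit, was lower (-1.85, adjusted p = 0.000287), as was RLF2, a subunit of the chromatin assembly factor that works with PCNA (-1.44, adjusted p = 0.000859). HTB2, a histone H2B gene, was lower too (-1.24, adjusted p = 0.00681).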
